A study of Mus musculus with 12 samples.

Results

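The effects of mifepristone and of added NaCl on a kidney epithelial cell line were examined for how they combined. The quantity described is the interaction of mifepristone and added NaCl. For each gene it is the log2 fold change with NaCl in mifepristone cells minus the log2 fold change with NaCl in vehicle cells. A positive interaction means that NaCl moved the gene further up, or less far down, in mifepristone cells, and a negative interaction the reverse. All 12 libraries entered, and every gene with an FPKM of at least 1 (fragments per kilobase of gene, scaled to the depth of the library) in at least 3 libraries was a member, which gave 14044 of the 48034 genes in the deposited table. No other rule on expression or on response was used.

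The cells were IMCD3, a mouse line from the inner medullary collecting duct, grown as the subclone 53a in low-glucose DMEM with 10% serum. From knowledge of the study, mifepristone makes this subclone express a dominant-negative form of a transcription factor that tubule epithelia of the kidney use. There were 4 groups of 3 libraries (A, B and C). Vehicle cells received neither agent, vehicle + NaCl cells received 100 mM added NaCl, mifepristone cells received mifepristone, and mifepristone + NaCl cells received both. All 4 groups came from the same clone and carry the inducible mutant, and no cells without it are among the libraries. An action of mifepristone itself and an action of the mutant therefore cannot be told apart. Whether libraries A, B and C of a group are separate cultures is not in the labels. The p-values therefore rest on the spread among libraries, part or all of which could be technical.

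Collecting duct cells of the inner medulla live in an interstitium that becomes strongly hypertonic when urine is concentrated. They respond to raised NaCl by importing or making organic osmolytes such as betaine, myo-inositol, taurine and sorbitol, largely through the tonicity-responsive factor NFAT5, and by adding sodium pumps and chaperones. The factor whose mutant is induced here sits at promoters of many tubule genes, including genes of the primary cilium and of solute transport. The interaction asks at which genes the response to NaCl differs between vehicle and mifepristone cells.

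Reads recovered from the deposited values summed to between 41940955 and 49270776 per library. Correlations of log2 values were 0.9893 to 0.9973 within groups and 0.9207 to 0.9683 between groups. In a fit of the quality of each library, mifepristone C had the lowest weight (0.122) and vehicle A the next (0.367), against 0.613 to 3.88 for the others. Of 17 listed markers of collecting duct principal cells, 8 passed the filter, and of 9 markers of intercalated cells, 2 did. Epithelial genes in the principal cell list, such as Cdh1 and Epcam, were abundant, with group means of 40.8 to 80.4 and 91.4 to 141 FPKM. Aqp2, the vasopressin-regulated water channel of principal cells, had 0 to 6 reads per library. Of 19 markers of leukocytes, endothelium, podocytes and other cell types, 3 passed the filter. The summed level of all 19 was 27.6 to 30.0 FPKM in vehicle, 21.1 to 22.5 in vehicle + NaCl, 16.2 to 16.4 in mifepristone and 15.5 to 15.6 in mifepristone + NaCl libraries. In the same order, Csf1r had group means of 25.4, 18.1, 6.28 and 6.11 FPKM, Cd68 3.11, 2.84, 4.04 and 5.36, and Dcn 0.078, 0.0735, 5.69 and 2.98, while the leukocyte marker Ptprc stayed at 0.296 FPKM or less and Hbb-bs was at 0 in all groups. The part of any of this in the interaction was not tested.

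The response to NaCl differed between the cell states at 4374 of the 14044 genes, or 31.1%, by limma with a threshold of 0.05 on the adjusted p. A positive interaction was called for 1915 genes (13.6%) and a negative interaction for 2459 (17.5%). At least 2-fold differences were fewer, with 148 genes higher (1.05%) and 118 lower (0.840%). Most called interactions were small: the median absolute log2 value was 0.39 among called genes and 0.18 over all genes tested, and 2964 called genes (67.8%) lay under 0.5. The median over all genes was -0.008 and the median standard error (SE) 0.091. NaCl itself changed 56.7% of genes in vehicle and 58.7% in mifepristone cells. Both counts of the interaction depend on the library mifepristone C: without it 6739 genes were called, 3144 higher and 3595 lower. The split between directions depends on the scale, since voom on the recovered reads called 2358 genes higher and 1981 lower (54.3% higher against 43.8%).

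The NaCl effects in vehicle and in mifepristone cells, which share no library, ran together across genes (Pearson r = 0.73, across genes, which are not independent replicates). Their standard deviations (SD) across genes were 0.48 and 0.52 on the log2 scale. Among the 4374 called genes, NaCl moved 1034 (23.6%) in the same direction but further in mifepristone cells and 576 (13.2%) in the same direction but less far. A further 1304 (29.8%) had a called NaCl effect in mifepristone cells alone and 965 (22.1%) in vehicle cells alone. In 428 genes (9.79%) the NaCl effects were both called with opposite signs: 242 were up in vehicle and down in mifepristone cells, and 186 the other way. The remaining 67 (1.53%) had no called NaCl effect in either state. Of the genes with opposite signs, 49 had an interaction of at least 2-fold. A log-scale interaction is a difference between ratios, and on the scale of FPKM differences 110 called genes (2.51%) had the opposite sign, among them 5 of the 266 with at least 2-fold interactions.

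**Figure D1:**
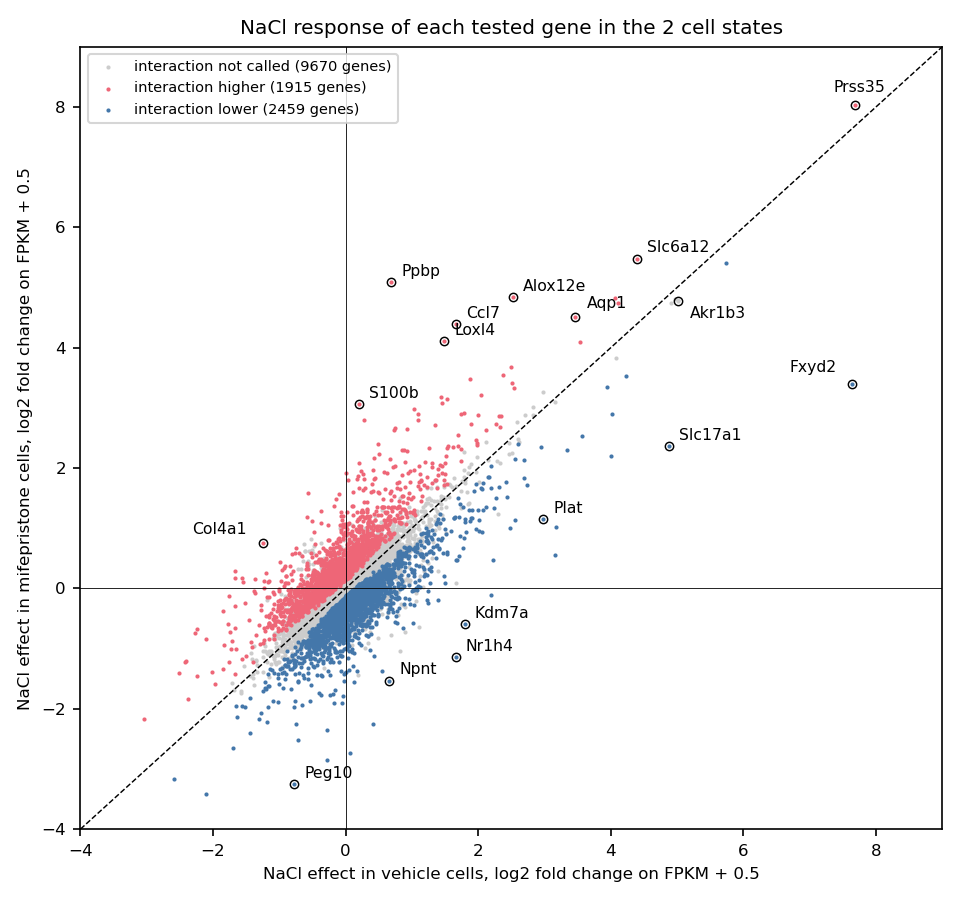
NaCl effect of each of the 14044 tested genes in vehicle cells (x axis) and in mifepristone cells (y axis), as log2 fold changes on FPKM + 0.5. Points above the dashed line of equal effects have positive interactions (1915 called, red), and points below it negative ones (2459 called, blue), with Ppbp farthest above and Fxyd2 farthest below among the circled named genes.

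Among genes with a mean of at least 1 FPKM in all groups, those that NaCl induced far more in mifepristone cells were led by Ppbp, which encodes a CXC chemokine precursor best known from platelets. Ppbp measured 5.05, 4.83 and 3.99 FPKM in the vehicle libraries A, B and C, 7.65, 6.76 and 8.97 with NaCl, 2.42, 2.31 and 2.33 with mifepristone, and 95.5, 99.1 and 95.7 with both. The mifepristone + NaCl libraries stood above all others, and mifepristone without NaCl below all others. NaCl raised it 1.62-fold in vehicle and 34.1-fold in mifepristone cells (interaction 4.40, SE 0.133, adjusted p = 1.41e-08). Loxl4, a lysyl oxidase family member that crosslinks collagen and elastin, measured 6.81, 7.83 and 7.68 FPKM in vehicle, 20, 22 and 22.9 with NaCl, 6.69, 6.86 and 5.38 with mifepristone, and 107, 114 and 130 with both. Without NaCl the vehicle and mifepristone libraries of Loxl4 overlapped, and with NaCl they were far apart (2.79-fold against 17.3-fold, interaction 2.63, SE 0.139). Ptgs1, the constitutive cyclooxygenase of prostaglandin synthesis, measured 1.12, 1.29 and 1.37 FPKM in vehicle, 2.85, 2.95 and 2.68 with NaCl, 1.86, 1.85 and 1.89 with mifepristone, and 13.9, 13.6 and 15.6 with both (interaction 1.73, SE 0.092). Its 4 groups did not overlap. In the authors' deposited table the interactions of these 3 genes were 4.61, 2.68 and 1.78.

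Several genes of this kind were near 0 FPKM in the other groups, so their reads are given. S100b, a calcium-binding protein, had 8 reads over the 3 vehicle libraries, 24 with NaCl, 16 with mifepristone and 893 with both. The NaCl ratio of its reads, scaled to library depth, was 2.9 in vehicle (95% exact counting interval 1.26 to 7.48) and 57.5 (35.2 to 101) in mifepristone cells. Lrrn3, a neuronal leucine-rich repeat membrane protein, had 5, 53, 4 and 1327 reads in the same order, with ratios of 10.3 (4.13 to 32.9) and 342 (133 to 1260). Gprc5b, an orphan G-protein-coupled receptor, rose 2.26-fold and 8.08-fold by reads, and Dapk2, a death-associated protein kinase, 2.13-fold and 9.93-fold, with intervals that did not overlap. These intervals cover counting error only. All 4 genes were called higher in the interaction (S100b 2.87, Lrrn3 2.52, Gprc5b 1.92, Dapk2 1.92) and kept that call with pseudocounts of 0.1 and 1 and with voom. S100b, Lrrn3 and Dapk2 reached the filter of 1 FPKM through the mifepristone + NaCl libraries alone, so a difference between groups was a condition of their being tested.

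Fxyd2 had the most negative interaction of the named genes. It encodes the gamma subunit of the Na,K-ATPase, which tunes the pump in kidney epithelium. Fxyd2 measured 0.0365, 0.0707 and 0.0325 FPKM in vehicle, 106, 106 and 114 with NaCl, 0.0696, 0 and 0.0319 with mifepristone, and 5.01, 5.12 and 5.21 with both. It was thus nearly silent without NaCl in both states, and the NaCl libraries of the 2 states did not overlap. Its summed reads were 4, 9412, 3 and 446, so NaCl raised it 2280-fold in vehicle (889 to 8360) and 153-fold (52.1 to 745) in mifepristone cells. The interaction was -4.25 (SE 0.078, adjusted p = 2.27e-10), -4.23 and -4.15 with pseudocounts of 0.1 and 1, and -3.78 with voom. The authors' deposited table gives -3.94 with an adjusted p of 0.985. Atp1b1, the beta subunit of the pump, rose 4.18-fold with NaCl in vehicle and 3.15-fold in mifepristone cells (-0.41, SE 0.054), although its difference in FPKM was the larger in mifepristone cells (85.8 to 360 in vehicle, 157 to 496 in mifepristone means). Atp1b3, another beta subunit, was not called (-0.05).

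Slc17a1, a phosphate and organic anion transporter, Nr1h4, the bile acid receptor FXR, and Slc6a12, the betaine transporter BGT1, show 3 different outcomes of the combination, so the 250 bases before their annotated starts are printed (RefSeq, GRCm38.p6, 5′ to 3′ on the gene's strand). For Slc17a1 and Slc6a12 the start with the lowest coordinate is used. Capitals mark GTTAAT, the first arm of the palindrome bound by the family of the mutated factor, and TGGAAA, the core of the tonicity element bound by NFAT5, or their reverse complements ATTAAC and TTTCCA. These motifs do not overlap in the windows printed.
Nr1h4, minus strand, chr10:89506659-89506908: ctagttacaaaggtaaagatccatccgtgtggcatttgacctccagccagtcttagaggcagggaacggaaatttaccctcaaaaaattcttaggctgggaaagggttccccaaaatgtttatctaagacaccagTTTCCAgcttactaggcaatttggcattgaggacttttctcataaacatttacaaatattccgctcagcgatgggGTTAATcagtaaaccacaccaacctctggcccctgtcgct
Slc17a1, plus strand, chr13:23868768-23869017: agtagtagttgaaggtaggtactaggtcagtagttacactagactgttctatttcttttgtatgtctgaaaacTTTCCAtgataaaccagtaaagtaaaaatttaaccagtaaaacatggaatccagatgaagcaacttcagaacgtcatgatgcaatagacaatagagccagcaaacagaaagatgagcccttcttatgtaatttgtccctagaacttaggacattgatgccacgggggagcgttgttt
Slc6a12, plus strand, chr6:121342324-121342573: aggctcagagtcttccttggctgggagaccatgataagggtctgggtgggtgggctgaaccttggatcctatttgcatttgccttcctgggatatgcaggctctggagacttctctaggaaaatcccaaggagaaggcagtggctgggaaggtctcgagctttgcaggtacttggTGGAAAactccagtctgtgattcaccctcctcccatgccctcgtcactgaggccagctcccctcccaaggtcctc

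Searched on both strands, GTTAAT is in 6.43% of the 32851 promoter windows of this length and TGGAAA in 18.6%. Nr1h4 holds GTTAAT starting 40 bases before its start and TGGAAA on the other strand starting 115 bases before. Slc17a1 and Slc6a12 hold TGGAAA starting 177 and 75 bases before their starts, and neither holds GTTAAT in this window. Among windows of genes called at least 2-fold higher GTTAAT was in 7.58% and TGGAAA in 18.2% of 132, and among those called at least 2-fold lower in 2.17% and 22.8% of 92. Windows of all genes tested gave 3.93% and 14.8%. A match describes letters in these windows and no binding was measured by it.

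Slc17a1 measured 1.18, 1.05 and 0.997 FPKM in vehicle, 45.1, 46.1 and 46.3 with NaCl, 0.324, 0.259 and 0.272 with mifepristone, and 3.77, 3.63 and 3.26 with both. Its induction was 41.4-fold by reads in vehicle (37.2 to 46.2) and 12.4-fold in mifepristone cells (10.1 to 15.5), from a lower starting level, and its 4 groups did not overlap (interaction -2.51, SE 0.084). S100g, the calcium-binding protein calbindin-D9k of transporting epithelia, had 21, 450, 8 and 30 reads. Its ratios were 20.7 (13.4 to 33.8) and 3.86 (1.73 to 9.75) (interaction -2.61, SE 0.306). S100g reached the filter of 1 FPKM through the vehicle + NaCl libraries alone, so a difference between groups was a condition of its being tested. Plat, tissue plasminogen activator, measured 25.0, 24.5 and 26.2 FPKM in vehicle, 201, 194 and 209 with NaCl, 33.3, 34.9 and 33.5 with mifepristone, and 74.6, 76.9 and 76.7 with both. NaCl thus raised Plat 7.85-fold in vehicle and 2.23-fold in mifepristone cells (interaction -1.82, SE 0.058). Snx9, a sorting nexin of endocytosis, was 30.7 to 32.7 FPKM in vehicle, and lay between 80.4 and 92.0 FPKM in all 9 libraries with NaCl, mifepristone or both (interaction -1.42, SE 0.057). NaCl raised Snx9 2.83-fold in vehicle cells, and in mifepristone cells the effect did not pass the test (1.06-fold higher, adjusted p = 0.10).

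Nr1h4 changed direction. It measured 1.98, 1.78 and 1.77 FPKM in vehicle, 7.55, 6.77 and 6.39 with NaCl, 4.32, 4.17 and 4.63 with mifepristone, and 1.63, 1.87 and 1.61 with both. Either agent alone raised Nr1h4, and with both the libraries overlapped those of vehicle. NaCl raised it 3.16-fold in vehicle and lowered it 2.21-fold in mifepristone cells (interaction -2.80, SE 0.10, adjusted p = 3.41e-08). Kdm7a, a histone demethylase, measured 1.38, 1.41 and 1.46 FPKM in vehicle, 6, 6.02 and 6.47 with NaCl, 2.18, 2.20 and 1.62 with mifepristone, and 1.10, 1.11 and 1.23 with both (interaction -2.39, SE 0.12). Its mifepristone + NaCl libraries were the lowest of the 12. Npnt, the basement membrane protein nephronectin, rose from 42.4, 44.5 and 45.0 to 69.2, 69.5 and 70.8 FPKM with NaCl in vehicle cells and fell from 22.5, 22.4 and 19.3 to 7.13, 6.84 and 7.18 in mifepristone cells (interaction -2.19, SE 0.077). Npnt was lower in all mifepristone libraries than in any vehicle library. Pik3r3, a regulatory subunit of phosphoinositide 3-kinase, rose 2.02-fold in vehicle and fell 1.49-fold in mifepristone cells (-1.59, SE 0.084). Klf4, a Krüppel-like factor of epithelial differentiation, rose 1.85-fold and fell 1.20-fold (-1.14, SE 0.061).

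The opposite turn, a fall with NaCl in vehicle cells and a rise in mifepristone cells, included both chains of the basement membrane collagen IV heterotrimer. Col4a1 measured 4.09, 4.63 and 4.87 FPKM in vehicle, 1.56, 1.68 and 1.61 with NaCl, 3.50, 3.46 and 3.10 with mifepristone, and 6.15, 5.72 and 6.21 with both (interaction 2.01, SE 0.091). It was lowest with NaCl alone and highest with both agents. Col4a2 measured 6.24, 6.87 and 7.25 FPKM, then 1.79, 1.84 and 1.72, then 2.83, 2.80 and 2.41, and 3.21, 2.85 and 3.20 in the same order (1.85, SE 0.099). For Col4a2 the rise in mifepristone cells was 1.13-fold (adjusted p = 0.0499), so its turn rests on the lost fall. Both genes start 21 bases apart on chromosome 8 (GRCm38, starts at 11312826 on the minus strand and 11312805 on the plus strand), and whether counting used strand is not given in the sources used here. Reads at their shared 5′ ends cannot be told apart.

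Plau, urokinase, a protease that like Plat activates plasminogen, went the other way from Plat. It measured 50.1, 47.9 and 47.4 FPKM in vehicle, 15.7, 16.1 and 16.2 with NaCl, 21.5, 22.2 and 24.0 with mifepristone, and 24.9, 26.2 and 25.4 with both. NaCl lowered Plau 2.96-fold in vehicle and raised it 1.13-fold in mifepristone cells (interaction 1.74, SE 0.061). Edn1, endothelin-1, a paracrine peptide of the collecting duct that inhibits sodium reabsorption, fell 1.43-fold and rose 2.18-fold (1.63, SE 0.125). Dcdc2a, a doublecortin-domain protein of the cilium, fell 1.49-fold and rose 2.27-fold (1.76, SE 0.084), remaining below all vehicle libraries in mifepristone cells. Rasl11a, a Ras-like GTPase, fell 3.19-fold and rose 1.23-fold (1.97, SE 0.149). In mifepristone cells its libraries overlapped, at 2.95, 2.61 and 3.06 FPKM without NaCl and 2.94, 4.44 and 3.62 with it (adjusted p = 0.0329). The turn of Rasl11a thus rests on the lost fall. Ly6a, a GPI-anchored surface antigen, fell 2.93-fold in vehicle cells and did not pass the test in mifepristone cells, where it was 66.6 to 84.6 FPKM without and 75.1 to 80.5 with NaCl (1.66, SE 0.114). Hsd11b2, which inactivates glucocorticoids in aldosterone target cells, had 393 and 100 reads in vehicle and 2079 and 2434 in mifepristone cells, without and with NaCl (ratios 0.246 and 1.21, interaction 1.46, SE 0.095).

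**Figure D2:**
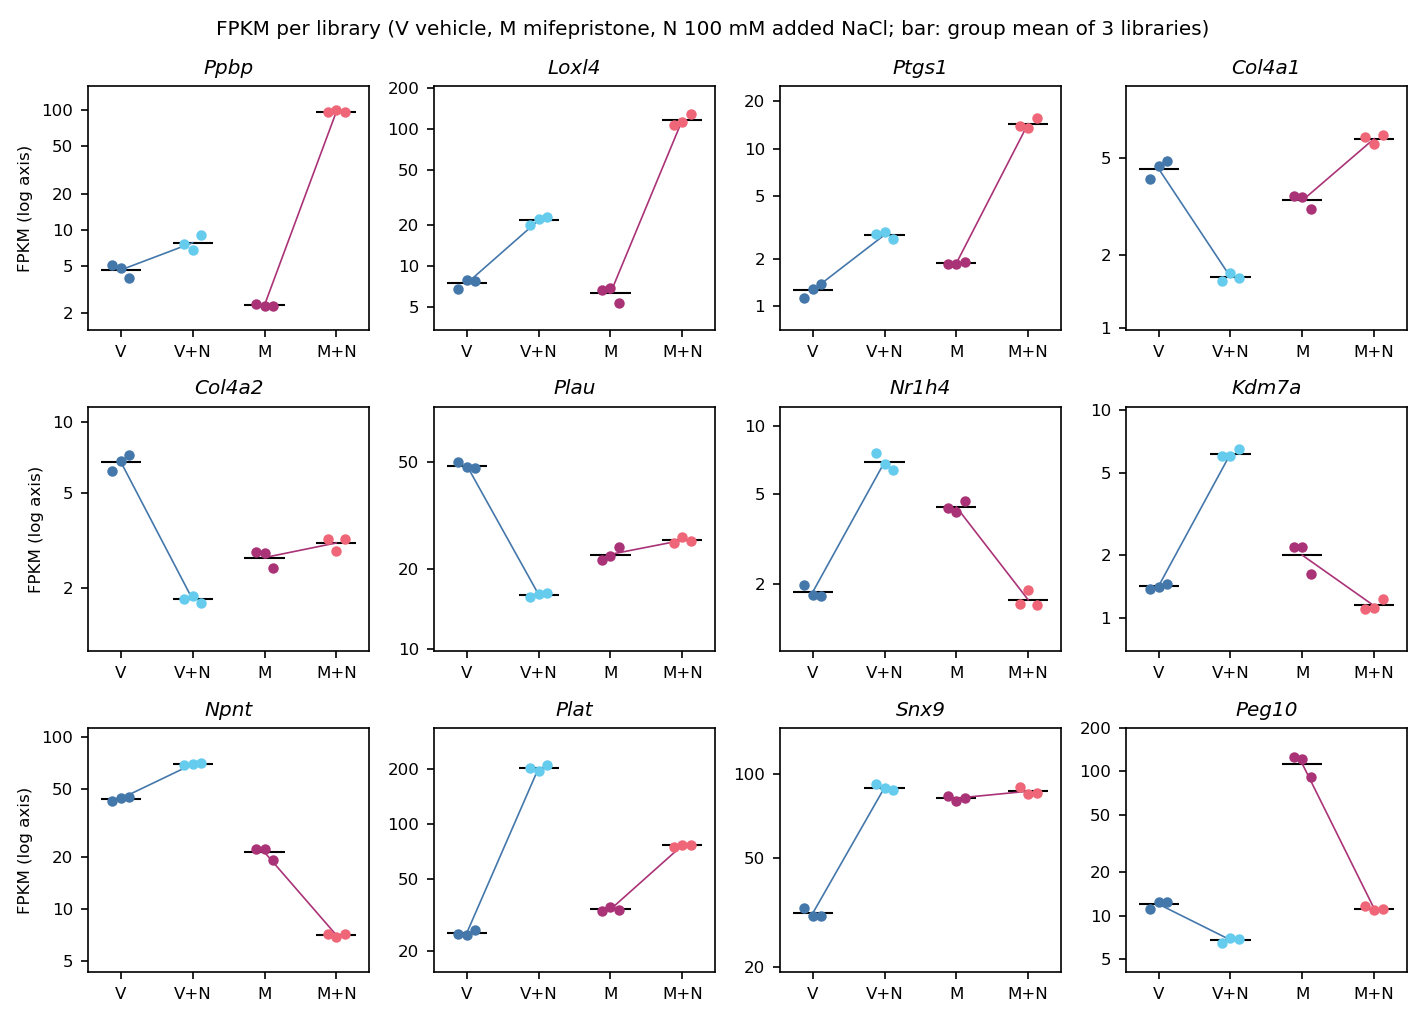
FPKM of 12 named genes in each library on log axes, 3 libraries per group, with horizontal bars for group means and lines joining the means without and with NaCl in vehicle cells (blue) and mifepristone cells (purple). Lines that cross direction, as for Nr1h4, Kdm7a, Npnt and Col4a1, are genes that NaCl moved in opposite directions, while for Peg10 both lines fall and the mifepristone line falls further.

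Peg10, Zfp750, Mgst1, Saa3 and Hoxa6 were higher with mifepristone than with vehicle in the absence of NaCl, and NaCl lowered them in mifepristone cells. Peg10, an imprinted gene derived from a retrotransposon, measured 11.1, 12.5 and 12.4 FPKM in vehicle, 6.46, 7.02 and 6.87 with NaCl, 125, 121 and 92.0 with mifepristone, and 11.6, 10.9 and 11.1 with both. With both agents Peg10 overlapped the vehicle libraries, and mifepristone C was the lowest of its group. NaCl lowered it 1.72-fold in vehicle and 9.57-fold in mifepristone cells (interaction -2.48, SE 0.137, and -2.62 without mifepristone C). Zfp750, a factor of epidermal differentiation, had 18 and 98 reads in vehicle and 1829 and 194 in mifepristone cells, so NaCl raised it 5.27-fold (3.17 to 9.26) and changed it by a ratio of 0.109 (0.0937 to 0.127). Mgst1, a microsomal glutathione transferase, had 46 and 14 reads in vehicle and 1250 and 46 in mifepristone cells (ratios 0.295 and 0.0379, interaction -2.58). Zfp750 and Mgst1 reached the filter of 1 FPKM through the mifepristone libraries alone, so a difference between groups was a condition of their being tested. Saa3, an acute-phase serum amyloid, had 1 and 3 reads in vehicle, too few for a ratio there (interval 0.233 to 152), and 720 and 73 in mifepristone cells (0.104, interval 0.0809 to 0.133). Hoxa6, a homeobox gene, rose 1.35-fold in vehicle and fell 2.17-fold in mifepristone cells (-1.55, SE 0.222). Its mifepristone libraries spread from 9.35 FPKM in C to 15.4 in A, and without C the interaction was -1.77. Apart from these, Sema5a, a semaphorin that mifepristone lowered without NaCl (20.2 to 7.26 FPKM), fell 2.57-fold in mifepristone cells. It did not pass the test in vehicle cells (-1.54, SE 0.199). Syne2, a nuclear envelope spectrin-repeat protein, rose 2.37-fold in vehicle cells and did not pass in mifepristone cells (-1.48, SE 0.351). Syne2 measured 23.6, 21.7 and 11.6 FPKM with mifepristone and 14.0, 14.1 and 18.1 with both, so only mifepristone C lay below the libraries with both. Among vehicle libraries, A was the lowest for Syne2 (12.2, against 17.1 and 20.1).

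Among 21 tested genes of the osmotic response, 7 were called higher and 6 lower, with a median interaction of -0.17 (61.9% called, against 31.1% of all genes). Those higher include Slc6a12 and Prss35, whose sign changed with voom. This list, like the other lists here, was chosen with earlier results of these data known. Its share of calls and its NaCl effects are therefore given as a description. NaCl effects were large in both states (median log2 2.28 in vehicle and 2.42 in mifepristone cells). Aqp1, a constitutive water channel, measured 39.1, 37.7 and 40.4 FPKM in vehicle, 442, 433 and 428 with NaCl, 5.70, 5.47 and 5.93 with mifepristone, and 147, 138 and 139 with both. The ratio of Aqp1 was larger in mifepristone cells (22.9-fold against 11-fold, interaction 1.06, SE 0.06), while its level stayed below that of vehicle cells with NaCl. Hsph1, a chaperone of the Hsp110 family, rose 4.01-fold in vehicle and 7.41-fold in mifepristone cells (0.88, SE 0.05). Its libraries lay at 18.9 to 19.9 FPKM in vehicle, 77.5 to 81.8 with NaCl, 23.0 to 23.8 with mifepristone and 174 to 179 with both. Sgk1, a kinase that promotes sodium transport, rose 11.6-fold and 17.1-fold (0.56, SE 0.063). Slc5a3, the myo-inositol transporter, rose 4.04-fold and 2.19-fold (-0.88, SE 0.13), from 5.98 ± 0.104 to 25.7 ± 0.769 FPKM in vehicle and from 26.0 ± 3.99 to 57.3 ± 4.38 in mifepristone cells (SD, n = 3), so the difference in FPKM was again larger in mifepristone cells. The sorbitol-producing enzyme gene Akr1b3 rose 32.3-fold and 27.3-fold without a called interaction (-0.24, SE 0.117, adjusted p = 0.145). Nor was it called for the taurine transporter Slc6a6 (0.25, SE 0.147) or for Nfat5 itself (-0.19, SE 0.233). Akr1b3 was called lower in 3 alternatives, among them quantile normalization (-0.28, adjusted p = 0.021), and Nfat5 without mifepristone C (-0.41, adjusted p = 0.0409).

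Of 12 amino acid transporters, 7 were called lower and 2 higher (median -0.30), where 17.5% of all genes were called lower and 13.6% higher. Slc1a5, a glutamine transporter, fell 1.48-fold with NaCl in vehicle and 2.18-fold in mifepristone cells (-0.56, SE 0.054). Slc6a9, a glycine transporter, rose 1.67-fold in vehicle cells and did not pass the test in mifepristone cells (-0.81, SE 0.107). Slc7a7, a cationic amino acid exchanger subunit, was called higher (1.02, SE 0.092). Slc7a7 reached the filter of 1 FPKM through the mifepristone + NaCl libraries alone, so a difference between groups was a condition of its being tested. Of 10 organic ion and phosphate transporters, 4 were called lower and 4 higher (median 0.18). All 3 Slco genes in that list were lower, with Slco4a1 at -0.70, Slco2a1 at -0.76 and Slco3a1 at -0.64, and the phosphate transporter Slc20a2 was higher (0.73, SE 0.051). Of 13 sodium and chloride transport genes, 4 were called lower and 2 higher (median -0.15). The chloride channel gene Cftr did not pass the test for NaCl in vehicle and fell 2.35-fold in mifepristone cells (-1.14, SE 0.122), while the anion exchanger gene Slc26a4, below 1 FPKM in 3 groups, rose 1.92-fold in mifepristone cells on FPKM + 0.5 (1.01, SE 0.091). By reads Slc26a4 rose 2.9-fold there (2.47 to 3.42), and its interaction with voom was 2.48. Slc26a4 too reached the filter of 1 FPKM through the mifepristone + NaCl libraries alone, with the same limit as Slc7a7. Car2, carbonic anhydrase of intercalated cells, rose 1.5-fold and 3.83-fold (1.36, SE 0.086).

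Of 19 tested targets of the mutated factor from earlier work, 8 were called lower and 3 higher (median -0.18, 57.9% called against 31.1% of all genes). The list was chosen with earlier results of these data known, so this share is given as a description. Umod, among the higher, was not called with voom. Fxyd2 and Nr1h4 are among the targets called lower, as is Glis2, a cystic kidney gene. Glis2 fell 1.81-fold with NaCl in mifepristone cells and did not pass the test in vehicle cells (-0.89, SE 0.064). Kif12, a kinesin of tubule epithelium, was called lower with a small value (-0.36, SE 0.083). The interactions of Pkhd1, the gene of recessive polycystic kidney disease (-0.06, SE 0.26), Pkd2, polycystin 2 (-0.16, SE 0.077), and the urea transporter gene Slc14a2 (0.20, SE 0.115) were not called. Pkd2 was called lower without mifepristone C (-0.23, adjusted p = 0.00229). Of 37 genes of the primary cilium and cystic kidney, 11 were called higher and 3 lower (median 0.12), or 37.8% against 31.1% of all genes, with median NaCl effects of -0.22 in vehicle and -0.06 in mifepristone cells. Those called higher included Mks1 of the ciliary transition zone (0.83, SE 0.088), the intraflagellar transport genes Ift88 (0.29, SE 0.064), Ift122 (0.30) and Ift57 (0.23), and the BBSome genes Bbs4 (0.37), Bbs7 (0.35) and Bbs9 (0.22). The other Ift genes of the list, such as Ift20 (-0.19), Ift140 (-0.08) and Ift81 (0.19), were not called.

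**Figure D3:**
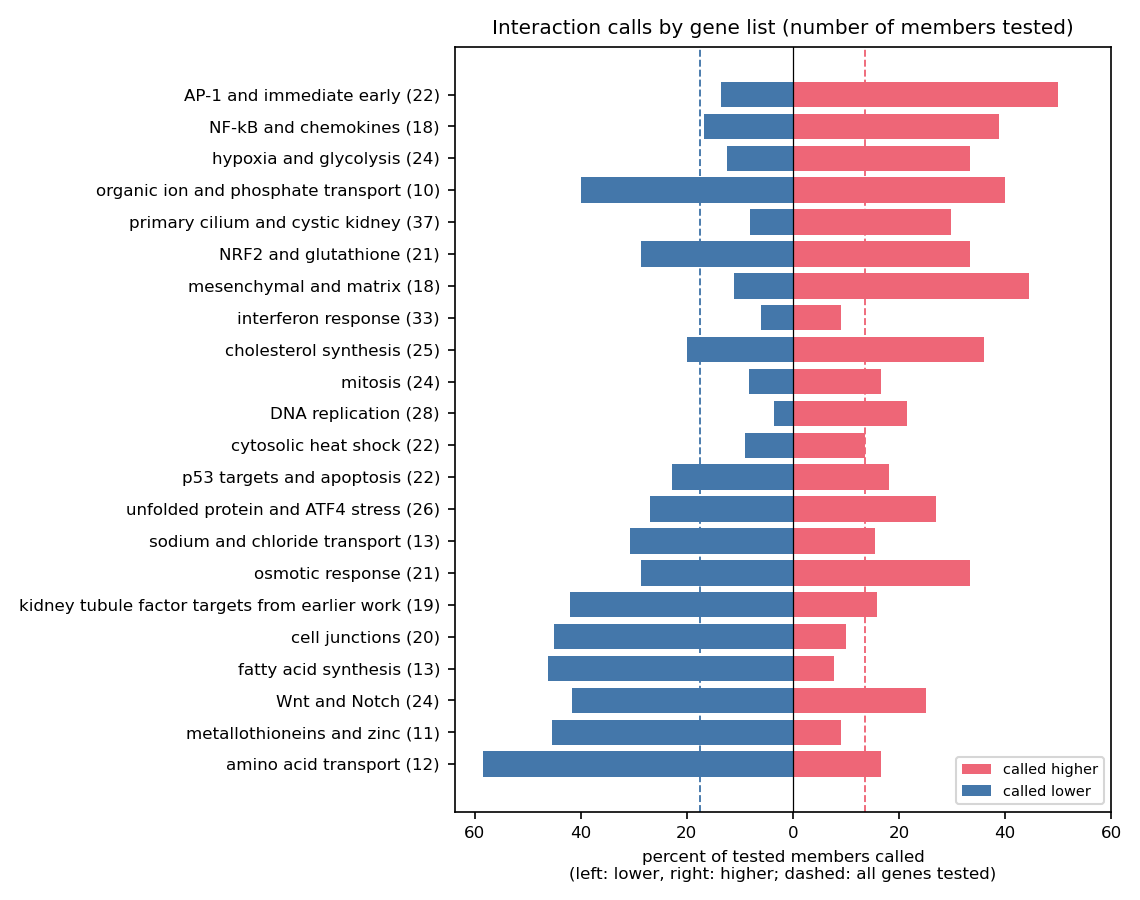
Percent of tested members called lower (left, blue) and higher (right, red) in the interaction, for the gene lists with at least 10 tested members, ordered by median interaction; dashed lines mark 17.5% lower and 13.6% higher over all genes tested. Lists at the top, such as the immediate early genes, extend further to the right, and amino acid transporters and metallothioneins at the bottom further to the left.

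Immediate early and AP-1 genes, which respond within minutes to growth factors and stress, were called higher in 11 of 22 cases and lower in 3 (median 0.28). Of all genes tested, 13.6% were called higher and 17.5% lower. Dusp6, a phosphatase of ERK, rose 5.62-fold with NaCl in vehicle and 12.8-fold in mifepristone cells (1.19, SE 0.061). Ier3, an early response regulator of survival, fell 1.20-fold and rose 2.07-fold (1.31, SE 0.095), and Egr1 and Jun, which encode early transcription factors, had interactions of 0.62 and 0.64. Of 18 NF-kB and chemokine genes, 7 were called higher and 3 lower (median 0.19). Those higher include Ccl7, whose call was lost with voom. The neutrophil chemokine gene Cxcl2 rose from 53 to 391 reads in vehicle and from 136 to 2168 in mifepristone cells (ratios 7.14 and 16.4, interaction 1.63, SE 0.139). Ccl20 was higher (1.91), with means of 0.303 FPKM in vehicle, 0.829 with NaCl, 0.537 with mifepristone and 5.84 with both. Only the last mean reached 1 FPKM, so the filter selected in part on this difference, and the value depends on the constant added. Cx3cl1, the membrane chemokine fractalkine, fell 2.07-fold in mifepristone cells and did not pass the test in vehicle cells (-0.92, SE 0.085). Of 33 interferon response genes, 3 were called higher and 2 lower (median 0.08), or 15.2% against 31.1% of all genes. All 9 tested acute phase and complement genes were called, 4 higher and 5 lower. Complement C3 (1.01) and angiotensinogen, Agt (1.57), were called higher, and their fall with NaCl was smaller in mifepristone cells. Saa3, Slpi and Orm1 (-1.51) were among the lower ones. Orm1 had means of 0.00993 FPKM in vehicle and 0 in vehicle + NaCl, too low for an NaCl effect there. In mifepristone cells it fell from 1.72 to 0.26 FPKM. Orm1 reached the filter of 1 FPKM through the mifepristone libraries alone, so a difference between groups was a condition of its being tested. Slpi, a secreted protease inhibitor, depends on the scale: it was -1.80 on FPKM + 0.5 and -0.60, not called, with voom.

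Matrix genes were called higher in 8 of 18 cases and lower in 2 (median 0.09), where 13.6% of all genes were called higher and 17.5% lower. Col4a1 and Col4a2 were among the higher, as were Ctgf (1.26), Cyr61 (1.28), Spp1 (0.87) and Cdh2 (1.04), which encode matricellular and adhesion proteins. NaCl lowered Ctgf in vehicle cells by a log2 value of -2.11 and in mifepristone cells by -0.85. Of 20 junction genes, 9 were called lower and 2, Cldn2 and Cldn12 (0.37), higher (median -0.18). The call of Cldn2 was lost with voom. Cdh3, P-cadherin, rose 1.36-fold in vehicle and fell 1.16-fold in mifepristone cells (-0.65, SE 0.075), and the tight junction genes Cgn (-0.54), Cldn3 (-0.37) and Ocln (-0.29) were lower. Of 24 Wnt and Notch entries, 10 were called lower and 6 higher (median -0.23). Those lower include Wnt6, whose sign changed with voom. Fzd6 is counted under both of its identifiers in that list. Tcf7l2, a transcription factor of Wnt signalling, fell 1.73-fold in mifepristone cells and did not pass the test in vehicle cells (-0.85, SE 0.063), and the Notch ligand gene Dll1 was lower (-0.79).

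Metallothioneins, which bind zinc and copper, fell with NaCl in both states and further in mifepristone cells. Mt1 went from 181 ± 6.50 to 66.2 ± 1.48 FPKM in vehicle and from 44.3 ± 6.33 to 7.96 ± 1.40 in mifepristone cells (-0.97, SE 0.167), and Mt2 from 68.9 ± 4.06 to 27.6 ± 0.159 and from 10.3 ± 1.38 to 1.92 ± 0.373 (SD, n = 3 for each, -0.86, SE 0.159). In the list with zinc transporters, 5 of 11 were called lower and 1 higher, where 17.5% of all genes were called lower and 13.6% higher. Of 13 fatty acid synthesis genes, 6 were called lower and 1, the NADPH-producing malic enzyme gene Me1 (0.76, SE 0.074), higher (median -0.21). Acsl3, which activates fatty acids, was -0.82 (SE 0.054). Cholesterol synthesis genes were called higher in 9 of 25 cases and lower in 5 (median 0.07). The mevalonate pathway genes Pmvk (0.73, SE 0.102), Mvk (0.57, SE 0.08) and Mvd (0.47, SE 0.052) were among the higher, and the regulator Srebf2 (-0.48) was among the lower.

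Stress programmes differed in their shares of calls. Of 22 cytosolic heat shock genes, 3 were called higher and 2 lower (median -0.01), or 22.7% against 31.1% of all genes. Hsph1 and the co-chaperone Bag3 (0.50, SE 0.055) led those called higher. The stress-inducible Hspa1a and Hspa1b, near-identical copies between which reads may be split, rose with NaCl in both states by log2 values of 2.61 in vehicle and 2.4 and 2.44 in mifepristone cells. Of 26 unfolded protein and ATF4 genes, 7 were called higher and 7 lower (53.8% called). The endoplasmic reticulum chaperone genes Hspa5 (0.26), Pdia4 (0.29), Pdia6 (0.31) and Calr (0.30) were among the higher, and Atf5 (-0.76, SE 0.067), Xbp1 (-0.45) and Asns (-0.35) among the lower. Of 21 entries for glutathione and NRF2 genes, 7 were called higher and 6 lower (61.9% called). Hypoxia and glycolysis genes were called higher in 8 of 24 cases and lower in 3 (median 0.18, 45.8% called). Aldoc, an aldolase, rose 1.22-fold and 3.54-fold (1.54, SE 0.106). Egln3, an oxygen-sensing hydroxylase, rose 2.02-fold in vehicle and did not pass the test in mifepristone cells (-1.04, SE 0.098). Of 28 DNA replication genes 6 were called higher and 1 lower, and of 24 mitosis genes 4 higher and 2 lower, or 25% of each list against 31.1%. Of 22 p53 and apoptosis genes, 4 were called higher and 5 lower (40.9% called).

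Genes near 0 FPKM were examined apart, because their interaction depends on the constant added before the logarithm. Of the 14044 genes, 12377 had a mean of at least 1 FPKM in all 4 groups, and 3736 of these (30.2%) were called, 62 at least 2-fold higher and 70 at least 2-fold lower. The other 1667 genes had a mean below 1 FPKM in at least 1 group. They supplied 638 calls (38.3%) and 86 of the 148 genes at least 2-fold higher and 48 of the 118 lower. Such a gene could enter only through groups in which it was high, so the filter selected in part on the differences counted here, and these shares are given as a description. Of the 638 calls, 426 kept their sign and call with pseudocounts of 0.1 and 1 and with voom, compared with 3247 of 3736 among genes above 1 FPKM. With voom alone 182 of the 638 calls were lost (28.5%), 32 genes changed sign and 4 of these were called in the reverse direction. In genes above 1 FPKM voom lost 447 of 3736 calls (12%) and changed 0 signs.

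The near-zero genes whose value turned on the constant included well-known NaCl-responsive genes. Slc6a12, whose promoter is printed above, had 6 and 4333 reads in vehicle and 13 and 9794 in mifepristone cells. Its NaCl ratio was 699 (321 to 1910) and 776 (453 to 1460), so the counting intervals overlapped, while the interaction was 1.09 (SE 0.085) on FPKM + 0.5 and -0.16, not called, with voom. Alox12e, a lipoxygenase, had 1 and 926 reads and 16 and 5859, with ratios of 896 (160 to 35400) and 377 (232 to 660), an interaction of 2.32 and a voom value of -0.24. Ccl7, a monocyte chemokine, had 6 and 145 reads and 285 and 6955, with ratios of 23.4 (10.5 to 64.8) and 25.1 (22.3 to 28.4). Its interaction was 2.74 (SE 0.246), but 0.41 and not called with voom. For Umod, uromodulin, the read ratios were 0.217 and 0.273 and for Cldn2, a claudin of leaky epithelia, 0.119 and 0.143, against interactions of 1.38 and 1.11 that were 0.37 and 0.29 with voom and no longer called. Wnt6, a Wnt ligand, had an interaction of -2.07 and a voom value of 0.24, and reached the filter of 1 FPKM through the mifepristone libraries alone. Prss35, a secreted serine protease homologue, was induced from 31 to 54682 reads and from 104 to 88684. Its interaction was 0.35 (SE 0.085), -0.25 with a pseudocount of 0.1 and -1.10, called lower, with voom. For these 7 genes the sign or the call changed with the constant or the scale. Sohlh1, which mifepristone raised from 1 to 8720 reads, had no called interaction (-0.11, SE 0.144).

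**Figure D4:**
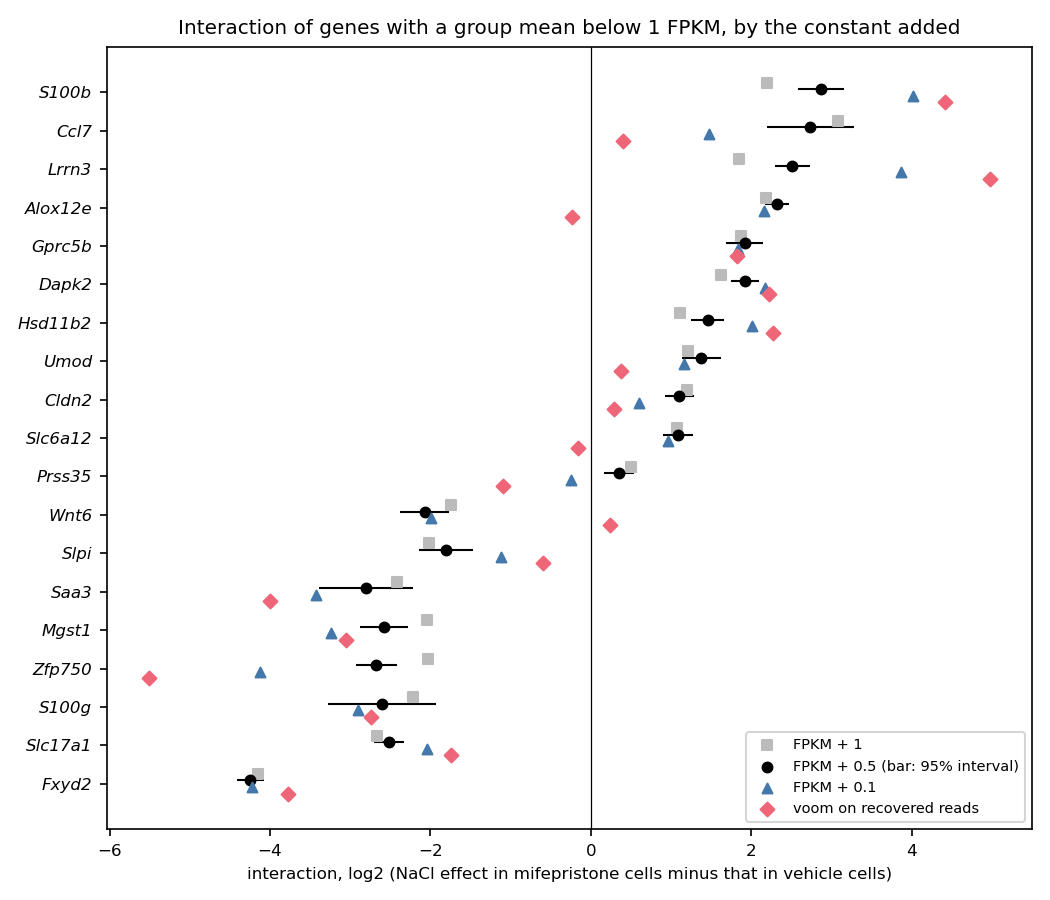
Interaction of 19 named genes with a mean below 1 FPKM in at least 1 group (rows), on the log2 scale, computed on FPKM + 1 (grey squares), FPKM + 0.5 (black circles with 95% intervals), FPKM + 0.1 (blue triangles) and by voom on recovered reads (red diamonds). Fxyd2, Slc17a1 and S100b keep their side of 0 on all scales, and Alox12e, Slc6a12, Prss35 and Wnt6 change sides with voom.

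The authors' deposited table gives an interaction for 20290 genes. An adjusted p under 0.05 was given to 88 genes, 55 with positive and 33 with negative interactions, and 75 of the 88 were tested here. All 75 were called here with the same sign. In that table the smallest absolute log2 value with an adjusted p below 1 was 1.21, against 2964 calls under 0.5 here, and whether those p-values test a minimum size of change is not given in the sources used here. The authors' interaction was 2.33 for Col4a1, -3.27 for Nr1h4 and -2.92 for Kdm7a, and all 3 had an adjusted p under 0.05. For the near-zero genes Ccl7 (0.06) and Alox12e (-1.19) it was not called (adjusted p of 1.0 for each).

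The deposited table also marks genes with a nearby ChIP peak, and 28.4% of the genes tested carry the mark. It was carried by 32.8% of genes called higher, 44.4% of those called lower, 45.9% of those at least 2-fold higher, 50.8% of those at least 2-fold lower and 23.4% of genes not called. The median of mean FPKM in these sets was 5.21, 10.9, 2.66, 4.36 and 8.85, so the sets differ in expression level. Nr1h4, Kdm7a, Npnt, Plat, Snx9, Loxl4, Col4a1, Col4a2, Dcdc2a and Slc17a1 carry the mark, and Fxyd2, Ppbp, Peg10, Plau and Ptgs1 do not.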

How the data were processed

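Poly(A) libraries of IMCD3 cells were sequenced, per the labels' protocols. The deposited expression table gives FPKM values made by the authors for 48034 genes. Its 6 Control columns match the sample titles by name. Its 6 columns named for the mutant were taken as the mifepristone samples from their NaCl part and letter and from knowledge of the study, and 0 columns were left without a sample. The submitters' processing notes name, with no role or order, DESeq2 1.12.3, SAMtools 1.0, STAR 2.4.2a and Trimmomatic 0.32, and the build GRCm38 (mm10). Counter, annotation and strand were not given in the sources used here. The authors' deposited comparison table holds a mean signal of normalized counts over all libraries, log2 fold changes, an interaction in log2 and p-values after adjustment, per the file headers.

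Interactions were tested with limma 3.58.1 (R 4.3.3, trended and robust) on log2(FPKM + 0.5) with 4 group means, 12 libraries and 8 residual degrees of freedom. This scale understates changes of low genes. Where a gene is low in some groups only, the scale can overstate its interaction, as for Slc17a1 (-2.51 against -1.75 with voom). Genes with at least 1 FPKM in at least 3 libraries entered, p-values were adjusted by Benjamini-Hochberg over all 14044, and calls are at an adjusted p under 0.05. Whole reads were recovered from FPKM and the authors' mean signal for 100.0% of values (tolerance 0.05). They served for read ratios with 95% exact intervals and for voom, and a count of 0 allows up to 3 reads, or 0.0609 to 0.0715 CPM. The script was tested on simulated data.

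The members and the gene lists were chosen with earlier results of these data known. Named genes are the 10 largest interactions in each direction among called genes with at least 1 FPKM in all groups, the 6 largest in each direction among near-zero genes, the 3 called members of each list with the smallest adjusted p (fewer where fewer were called), and 20 set genes, with some dropped for length. List members named beyond these illustrate their list and were chosen after their values were seen. Genes lacking a proper symbol were not named, and results for some genes are not reported here. Promoter windows come from RefSeq (GRCm38.p6). The alternatives tried were 2 other pseudocounts, other filters and scalings, a block for the replicate letter, library weights estimated gene by gene, a stricter threshold and each library left out. Voom, leaving out vehicle A with mifepristone C, and a filter on group means were chosen after seeing the data. Tables and figures were made with Python 3.11.15, pandas 2.3.3, scipy 1.17.1 and matplotlib 3.10.9.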

Additional observations from a re-analysis of the deposited data

Results flagged for a closer look

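Among the named genes called in the interaction, 20 described here had NaCl effects that were each called and pointed in opposite directions in vehicle and mifepristone cells. Some rises in mifepristone cells were small, such as those of Rasl11a (1.23-fold, with libraries that overlapped) and Col4a2 (1.13-fold). The test of the difference is the interaction itself. It was positive, a fall in vehicle and a rise in mifepristone cells, for Col4a1 (2.01), Rasl11a (1.97), Col4a2 (1.85), Dcdc2a (1.76), Plau (1.74), Edn1 (1.63), Hsd11b2 (1.46), Ier3 (1.31), Slc20a2 (0.73) and Mvk (0.57). It was negative, a rise in vehicle and a fall in mifepristone cells, for Nr1h4 (-2.80), Zfp750 (-2.68), Kdm7a (-2.39), Npnt (-2.19), Pik3r3 (-1.59), Hoxa6 (-1.55), Klf4 (-1.14), Atf5 (-0.76), Cdh3 (-0.65) and Bub1b, a spindle checkpoint kinase (-0.37).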

How the results depend on the processing

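Of 105 named genes called in the interaction, 92 had the same call under every setting that tested them. Stricter filters left some named genes untested. A mean of at least 5 FPKM kept 78 of the 112 named genes, and at least 1 FPKM in all 4 groups kept 81. Leaving out 1 library gave 3437 to 6739 called genes, 1447 to 3144 higher, 1918 to 3595 lower, 108 to 170 at least 2-fold higher and 87 to 178 at least 2-fold lower, with 6739, 3144, 3595 and 178 without mifepristone C. No other single library moved the count of called genes by over 1.5 times. Library quality weights gave 8144 called genes, 3878 higher and 4266 lower, with 194 at least 2-fold lower. An adjusted p under 0.01 left 2618 genes, 1144 higher and 1474 lower. A mean of at least 5 FPKM left 2807 called genes, 985 higher, with 52 at least 2-fold higher and 54 lower. A pseudocount of 1 left 97 and 76 genes at least 2-fold higher and lower, a mean of at least 1 FPKM in all 4 groups 62 and 70, and voom gave 231 at least 2-fold higher. The replicate letters did not pair the libraries: deviations of same-letter libraries correlated from -0.5 to 0.288, and 6 of 18 pairs were above 0.1. Of 12 libraries, 0 correlated best with their own letter. Deviations of libraries with different letters correlated from -0.444 to 0.609. The highest value was between vehicle A and mifepristone C, the libraries with the lowest quality weights, and its cause was not tested. A replicate block gave 3724 called genes, 1662 higher and 2062 lower.

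Signs changed with voom for Alox12e (-0.24), Slc6a12 (-0.16), Wnt6 (0.24) and Prss35 (-1.10, and -0.25 with a pseudocount of 0.1). Signs of interactions that were not called also changed: Slc14a2 (-0.011) and Sohlh1 (0.033) with quantile normalization, Sohlh1 with quality weights (0.057), without both vehicle A and mifepristone C (0.016) and without mifepristone C (0.007, in a range from -0.204 over the libraries left out), and Pkhd1 without vehicle A (0.101), mifepristone A (0.072) or mifepristone B (0.018), in a range from -0.273. The cause of these changes was not tested, except that voom and the pseudocounts add different constants to near-zero values. A gene near 0 in a group of 3 libraries is limited by its reads there.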

Other observations

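Some genes below the expression filter had reads that differed in the same design. They were chosen after their values were seen and were not tested. Slc14a1, the urea transporter UT-B, had 3 reads over the vehicle libraries, 1 with NaCl, 1 with mifepristone and 196 with both, the last as 69, 62 and 65 per library. Its NaCl ratio was 0.323 in vehicle (95% exact counting interval 0.00614 to 4.02) and 202 in mifepristone cells (35.8 to 8010). P2rx7, an ATP-gated ion channel, had 17, 555, 73 and 203 reads, with ratios of 31.6 (19.6 to 54.6) and 2.86 (2.18 to 3.80). The Zscan4 genes, known from early embryos and from stem cells with active telomere maintenance, rose with NaCl in vehicle reads and not in mifepristone reads. Zscan4c had 34, 204, 150 and 131 reads (ratios 5.81 and 0.899), Zscan4b 13, 120, 83 and 72 (8.93 and 0.893), Zscan4d 19, 108, 68 and 78 (5.50 and 1.18), and Zscan4e 14, 136, 96 and 78 (9.40 and 0.837). These copies are near-identical, so reads may be split between them. Aqp2 had 0, 2, 0 and 11 reads in the same order.

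Genes chosen for an NaCl effect of at least 2-fold in 1 state had smaller median effects in the other, whichever state was used to choose. The 384 genes raised in vehicle cells had a median log2 effect of 1.39 there and 1.24 in mifepristone cells, and the 468 raised in mifepristone cells 1.39 there and 1.05 in vehicle cells. For lowered genes the medians were -1.19 and -0.97 (180 genes chosen in vehicle) and -1.23 and -0.77 (257 chosen in mifepristone cells). These medians follow in part from choosing on the same values.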
